A study of Mus musculus with 10 samples.

Results

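A set of 8 genes of the Lingo and Nogo receptor pathway was examined in the hippocampus of mice whose meningeal lymphatic vessels had been targeted for ablation. The members are Lingo1, Lingo2, Lingo3, Rtn4, Rtn4r, Rtn4rl1, Rtn4rl2 and Omg, taken by symbol from a table of 27343 genes, and all 8 were found there. The set was chosen by gene symbol with the Visudyne and vehicle levels of these libraries already known, that of Lingo3 in particular, so those levels and their differences are given as a description and are not tested as findings. Of the 8, 7 passed the filter on low counts and Rtn4rl2 did not.

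All 10 mice were wild-type male C57BL/6J animals, 2 months old. The 5 Visudyne mice (libraries 1 to 5) received Visudyne, the photosensitizer verteporfin, into the cisterna magna, and the 5 vehicle mice (libraries 6 to 10) received vehicle. Red light of 689 nm was then applied above the intact skull in both groups, the procedure was done again 2 weeks later, and the Morris water maze, a spatial learning test, followed after another 2 weeks. Whole hippocampus was taken 3 days after the maze, so no group without the maze or without light enters the comparison, and the loss of lymphatic vessels itself cannot be read from hippocampal RNA. The titles and the protocol give the maze for both groups, although the treatment label of the vehicle mice names vehicle alone. The labels number the mice separately but do not name litters or batches, so the spread between libraries may hold technical as well as biological variation.

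Nogo-A, a splice form of the reticulon gene Rtn4, and oligodendrocyte-myelin glycoprotein, from Omg, are membrane proteins that limit axon growth and stabilise existing connections in the adult brain. Both bind the Nogo receptor NgR1, the product of Rtn4r, a lipid-anchored leucine-rich repeat protein that signals through partners in the membrane. Lingo1 encodes one such partner, which passes the signal to RhoA and its kinases, and Lingo2 and Lingo3 are its close relatives. Rtn4rl1 and Rtn4rl2 encode the NgR1 homologues NgR3 and NgR2. In the hippocampus, Nogo-A and NgR1 of neurons are known to restrain synaptic plasticity and spine turnover.

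Total counts were 34548474 to 36956138 in Visudyne and 24752362 to 41073906 in vehicle. The mitochondrial ribosomal RNA mt-Rnr2 alone made up 33.6% to 39.7% of them in Visudyne and 32.2% to 35.7% in vehicle. Its mean share was 37.2% and 33.6%, so total counts overstate the depth left for other genes, and scaling by them carries this difference. Of 15938 tested genes, 20.5% were called by the edgeR quasi-likelihood test at an adjusted p under 0.05, 8.98% higher and 11.5% lower in Visudyne. Libraries also differed in how level followed GC content. The slope of log2 CPM (counts scaled to library size) on GC content, in log2 units for each 10 percentage points of GC, was -0.54 to 0.0079 in Visudyne and -0.020 to 0.41 in vehicle. All 6 hippocampal markers listed were detected, among them Zbtb20, Neurod6 and Prox1. The 3 choroid plexus markers, of which 1 was called higher, summed to 381.9 CPM in Visudyne 3 and 276.6 CPM in Visudyne 5, and to 21.2 to 30.9 CPM in the other libraries.

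Over whole transcripts the members fall into a GC-rich and a GC-poor set, but short coding stretches do not all follow that split. The 6 stretches below are codons 101 to 130 of the GENCODE M21 coding sequences, 5′ to 3′ on the gene's own strand, shown because GC content enters the comparisons described further on, with Rtn4 as the member whose stretch goes against its set. Capitals mark a G or C at the third position of a codon, where the base is often free to vary without changing the amino acid.
Lingo3, GRCm38 chr10:80835705-80835794, minus strand: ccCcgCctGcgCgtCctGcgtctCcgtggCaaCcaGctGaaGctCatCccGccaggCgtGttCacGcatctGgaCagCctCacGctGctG
Lingo1, GRCm38 chr9:56620932-56621021, minus strand: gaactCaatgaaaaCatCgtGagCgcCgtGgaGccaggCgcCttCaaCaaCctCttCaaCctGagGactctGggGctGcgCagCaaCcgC
Rtn4r, GRCm38 chr16:18151010-18151099, plus strand: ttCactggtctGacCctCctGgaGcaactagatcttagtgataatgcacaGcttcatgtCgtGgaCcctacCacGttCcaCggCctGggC
Lingo2, GRCm38 chr4:35709589-35709678, minus strand: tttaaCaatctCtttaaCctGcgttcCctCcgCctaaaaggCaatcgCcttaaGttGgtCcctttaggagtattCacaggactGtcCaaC
Rtn4, GRCm38 chr11:29693489-29693578, plus strand: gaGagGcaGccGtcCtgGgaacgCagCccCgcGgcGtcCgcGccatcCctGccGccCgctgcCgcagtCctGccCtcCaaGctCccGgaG
Omg, GRCm38 chr11:79502641-79502730, minus strand: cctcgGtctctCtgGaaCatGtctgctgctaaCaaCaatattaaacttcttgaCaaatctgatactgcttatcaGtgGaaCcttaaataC
Of the 30 codons shown, 26 end in G or C in Lingo3 and in Rtn4, 25 in Lingo1, 17 in Rtn4r, 16 in Lingo2 and 12 in Omg. In the same codons of the receptor genes not shown, Rtn4rl2 has 25 and Rtn4rl1 21. The Rtn4 stretch, at 76.7% GC, is richer in GC than that of Lingo3, at 67.8%, although Rtn4 belongs to the GC-poor set. Over the whole coding sequence the share of codons ending in G or C was 87.4% in Rtn4rl2, 85.1% in Lingo3, 81.0% in Lingo1, 73.3% in Rtn4rl1, 61.5% in Rtn4r, 60.9% in Lingo2, 45.6% in Omg and 42.0% in Rtn4. By that share Rtn4r, a GC-rich member, lies beside Lingo2, a GC-poor one. The GC content of all annotated transcripts was 67.9% for Rtn4rl2, 62.7% for Rtn4r, 61.8% for Lingo3, 59.1% for Lingo1, 56.9% for Rtn4rl1, 45.8% for Lingo2, 45.4% for Rtn4 and 41.7% for Omg.

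In the vehicle hippocampus, the ligand genes were far more abundant than the genes of their receptors. Levels between genes were compared as CPM per kilobase of annotated exon. Rtn4 stood at 109.0 ± 12.2 and Omg at 56.5 ± 5.01 (SD, n = 5 each). Rtn4rl1 was at 3.67 ± 0.410, Lingo2 at 3.23 ± 0.290, Lingo3 at 3.18 ± 0.288 and Lingo1 at 2.80 ± 0.238. The receptor gene Rtn4r was lower, at 0.992 ± 0.228, and Rtn4rl2 lowest, at 0.119 ± 0.0567. Rtn4, Omg, the group of 4, Rtn4r and Rtn4rl2 did not overlap in the vehicle libraries, while each neighbouring pair within the group of 4 overlapped. Their order also depends on the length used, since with the longest annotated transcript in place of all exons Lingo2 was at 7.05 and stood above Rtn4rl1 in 5 of 5 vehicle libraries.

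The ligand gene Rtn4 (ENSMUSG00000020458, GRCm38 chromosome 11, 29692947 to 29744331, plus strand) had 1012, 885, 983, 846 and 737 CPM in Visudyne 1 to 5. In vehicle 6 to 10 it had 778, 835, 806, 616 and 777 CPM. The groups overlapped, with Visudyne 5 below 4 of the vehicle libraries and vehicle 9 below all others, and the log2 fold change of Visudyne over vehicle was 0.23 (SE 0.10). The 3′ end of Rtn4 overlaps exons of Eml6 on the opposite strand. Eml6 was at 40.4 (Visudyne) and 37.6 (vehicle) CPM, both far below Rtn4.

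Omg (ENSMUSG00000049612, chromosome 11, 79500982 to 79504084, minus strand) lies inside an intron of Nf1 on the opposite strand, with no exon in common. It had 162, 136, 160, 133 and 119 CPM in Visudyne 1 to 5 and 125, 130, 131, 107 and 136 CPM in vehicle 6 to 10. Its pattern followed that of Rtn4, with the highest values in Visudyne 1 and 3 and the lowest in vehicle 9 and Visudyne 5, and the groups overlapped. The log2 fold change was 0.18 (SE 0.093), and -0.037 with library size taken from total counts alone, a scaling that moved the median of all genes from 0.010 to -0.19. The ratio of Rtn4 to Omg in CPM lay between 5.73 and 6.52 in the 10 libraries. Nf1 itself was at 245.2 (Visudyne) and 218.6 (vehicle) CPM. Whether the counting used strand is not stated in any source at hand.

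The receptor gene Rtn4r (ENSMUSG00000043811, chromosome 16, 18127642 to 18152408, plus strand) had 0.942, 1.37, 1.05, 1.06 and 1.41 CPM in Visudyne 1 to 5. In vehicle 6 to 10 it had 2.12, 2.00, 1.56, 2.52 and 1.42 CPM. All 5 Visudyne values lay below all 5 vehicle values, but Visudyne 5 and vehicle 10 almost touched. These values rest on 30 to 54 counts in Visudyne and 36 to 99 counts in vehicle, few enough for counting error to add to their spread. Rtn4r was at 0.607 of its vehicle level, a log2 fold change of -0.72 (SE 0.19).

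The NgR3 gene Rtn4rl1 (ENSMUSG00000045287, chromosome 11, 75193783 to 75267769) had 10.4, 11.5, 10.4, 11.5 and 12.4 CPM in Visudyne 1 to 5 and 15.4, 12.03, 12.2, 13.1 and 11.9 CPM in vehicle 6 to 10. Each Visudyne library lay below the vehicle mean, but the ranges overlapped through Visudyne 5, and vehicle 6 stood above the rest. The log2 fold change was -0.21 (SE 0.089). The NgR2 gene Rtn4rl2 (ENSMUSG00000050896, chromosome 2, 84871924 to 84886710) had 0, 9, 2, 4 and 7 counts in Visudyne 1 to 5 and 10, 7, 3, 11 and 3 counts in vehicle 6 to 10. The count of 0 in Visudyne 1 allows up to 0.0942 CPM, and a difference between the groups was not detectable at this depth. That limit covers counting error only.

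Lingo3 (ENSMUSG00000051067, chromosome 10, 80832801 to 80844039, minus strand) showed the widest separation of the groups. It had 6.15, 6.84, 7.70, 6.97 and 7.09 CPM in Visudyne 1 to 5 and 12.7, 9.98, 11.2, 11.8 and 10.9 CPM in vehicle 6 to 10. The highest Visudyne value, in library 3, was well under the lowest vehicle value, in library 7. These values rest on 196 to 272 counts in Visudyne and 277 to 554 counts in vehicle. Lingo3 was at 0.614 of its vehicle level, a log2 fold change of -0.70 (SE 0.088).

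Lingo1 (ENSMUSG00000049556, chromosome 9, 56618475 to 56796468, minus strand), the co-receptor gene, had 10.2, 11.8, 11.8, 11.6 and 12.2 CPM in Visudyne 1 to 5. In vehicle 6 to 10 it had 13.6, 14.1, 13.0, 14.1 and 11.4 CPM. All Visudyne libraries lay below the vehicle mean, and vehicle 10 fell within the Visudyne range. Its log2 fold change, -0.20 (SE 0.079), was smaller than that of Lingo3, although both genes are rich in GC. Lingo2 (ENSMUSG00000045083, chromosome 4, 35706647 to 36951747, minus strand) went the other way. It had 33.9, 29.6, 32.6, 33.4 and 28.5 CPM in Visudyne 1 to 5 and 23.1, 29.4, 26.3, 28.3 and 27.1 CPM in vehicle 6 to 10. All Visudyne libraries lay above the vehicle mean, with overlap between Visudyne 5 and vehicle 7, and the log2 fold change was 0.24 (SE 0.076). With total counts alone it was 0.030, and that of Rtn4 was 0.016. Introns of Lingo2 hold small RNA genes and pseudogenes, among them Mir876 and Mir873a, that share no exon with it.

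**Figure D1:**
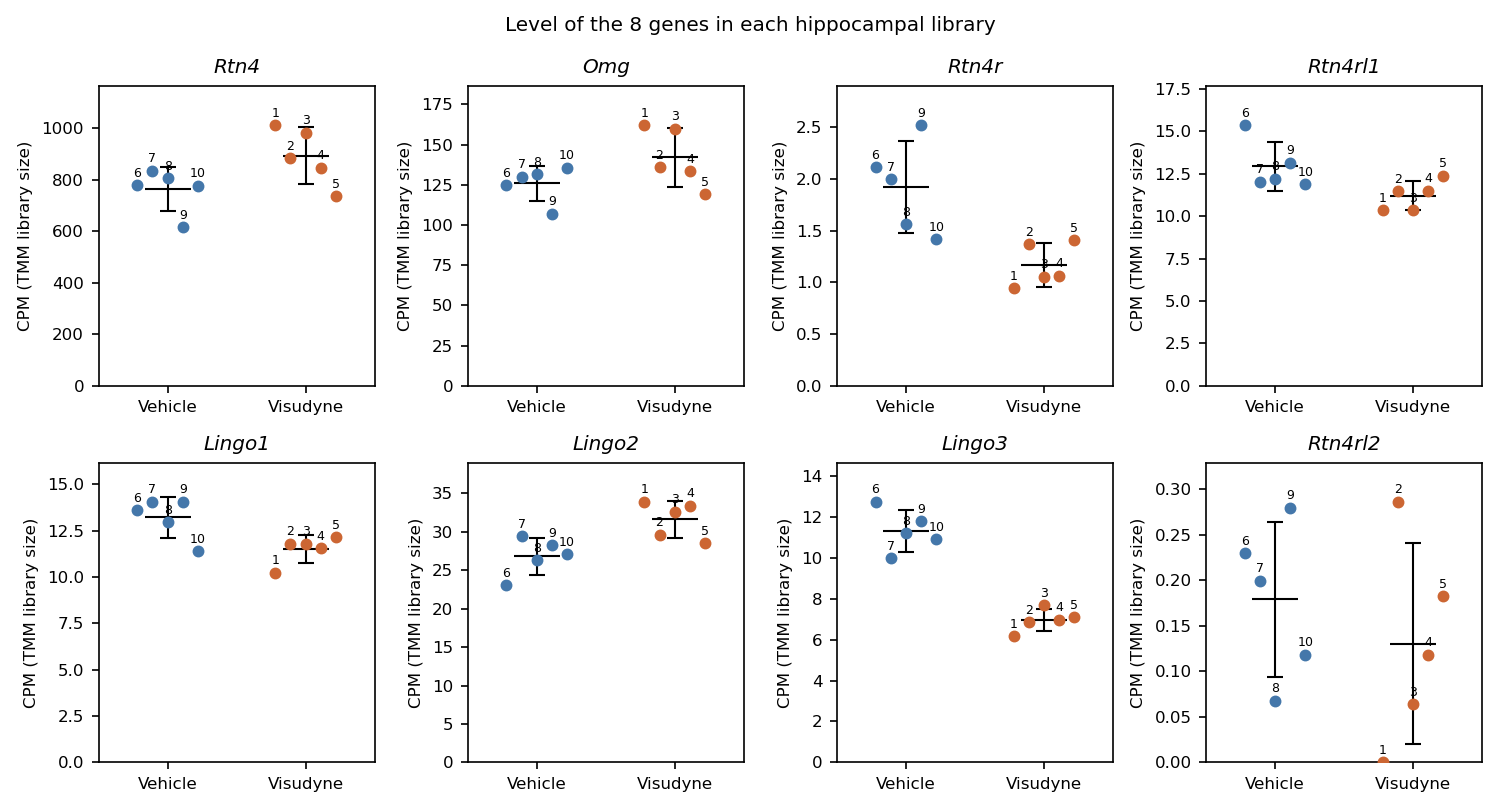
Level of each of the 8 genes in CPM, on axes that start at 0, with 1 point per library (numbered), 5 per group, and the group mean with its SD in black. Lingo3 and Rtn4r separate the groups, Rtn4r narrowly (1.41 against 1.42 CPM), and the other 6 genes overlap.

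By edgeR, 3 of the 7 tested members passed the threshold of an adjusted p under 0.05, Lingo3 and Rtn4r lower and Lingo2 higher, where 20.5% of all tested genes did. Groups did not overlap in 2 of the 7, against 12.5% of all tested genes (5.25% with Visudyne higher and 7.22% with Visudyne lower). Because the members were proposed with this contrast known, nothing is read from either count. Of the 7, Lingo3 alone passed in all 10 fits that left out 1 library, at a log2 fold change of -0.75 to -0.66. Rtn4r passed in 4 of them and Lingo2 in 1 of them, without Visudyne 5. Rtn4 passed without Visudyne 5 and Lingo1 without vehicle 10. Rtn4r missed the threshold without Visudyne 1, 3 or 4 or vehicle 6, 7 or 9. The share of all tested genes called moved widely between these fits, from 0.0622% without vehicle 6 and 0.167% without Visudyne 3 to 31.5% without Visudyne 5, and the members' calls are to be read against that share.

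The sign of each tested member's difference followed its GC content, as did the median, though not every gene, across deciles of GC content of all tested genes. The 4 GC-rich tested members (56.9% to 62.7%) were lower in Visudyne and the 3 GC-poor ones (41.7% to 45.8%) were higher. Among all tested genes, the decile with the highest GC content, from 57.2% to 69.2%, had a median log2 fold change of -0.48, with 27.9% called lower and 0.8% called higher. That decile holds Lingo1, Lingo3 and Rtn4r. The decile with the lowest GC content had a median of 0.31, with 30.7% called higher and 0.3% lower. The source of the GC trend was not tested. The GC slopes of the groups overlapped only through Visudyne 5, at 0.0079, and vehicle 10, at -0.020. Taking the trend or slope out can therefore also take out a difference that came with treatment, and the 2 cannot be told apart here.

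With each library's trend on GC content removed, all 7 tested members overlapped between the groups and 0 were called, where 3.17% of all tested genes were still called and 6.85% did not overlap. Lingo3 moved to a log2 fold change of -0.18 (SE 0.14) and Rtn4r to -0.17 (SE 0.13). Lingo1 changed sign to 0.27 (SE 0.11), as did Rtn4rl1 to 0.19 (SE 0.095) and Omg to -0.076 (SE 0.071). Lingo2 was at 0.11 (SE 0.068) and Rtn4 at 0.091 (SE 0.091). In CPM so adjusted, Lingo3 had 10.6, 7.45, 9.55, 7.86 and 6.77 in Visudyne 1 to 5 and 9.73, 8.58, 10.7, 7.36 and 11.1 in vehicle 6 to 10. The 2 groups were then interleaved, with Visudyne 1 among the high values and vehicle 9 among the low ones. With the library's GC slope as a covariate in the model instead, Lingo3 moved to a log2 fold change of -0.54 (SE 0.11) and was not called, while Rtn4r was at -0.14 (SE 0.22), Lingo1 at 0.0093 (SE 0.085) and Rtn4rl1 at 0.0057 (SE 0.11). In that fit 0 genes of the whole table were called by edgeR, and 1032 had an unadjusted p under 0.05.

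**Figure D2:**
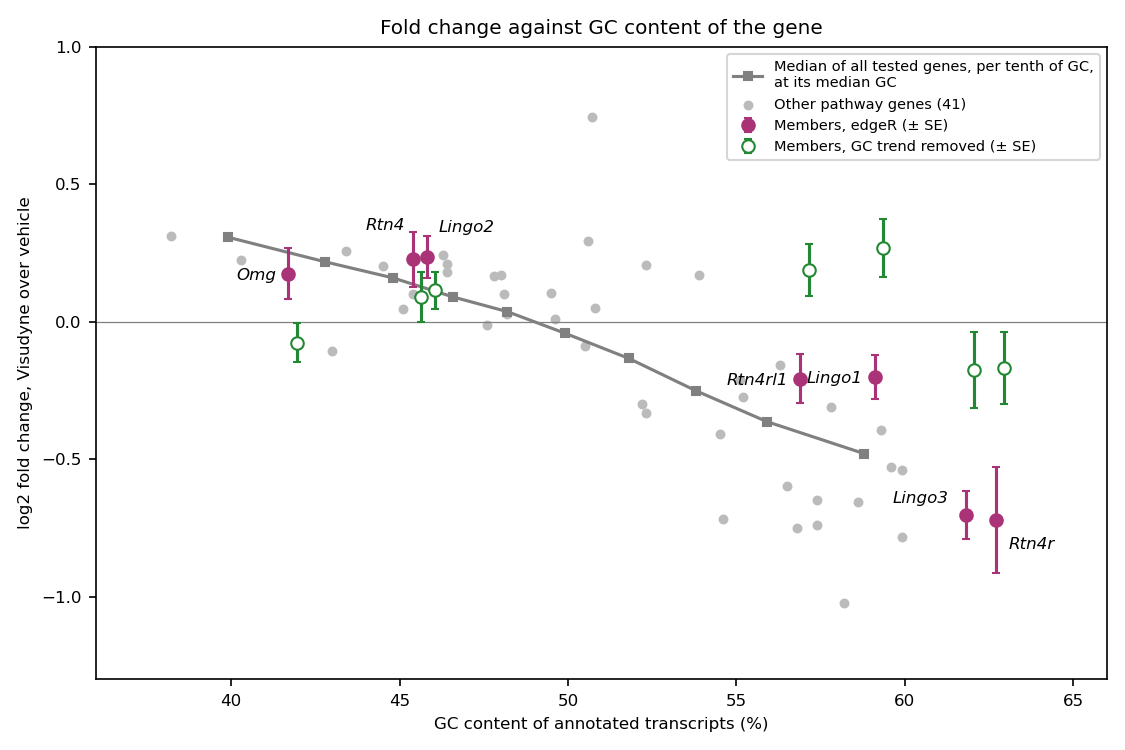
Log2 fold change of Visudyne over vehicle against the GC content of each gene's annotated transcripts (%), for the 7 tested members (filled, edgeR; open, with the GC trend removed, drawn slightly to the right; bars are SE), the 41 tested other pathway genes (grey points) and the median of all tested genes in each decile of GC content (grey line). Rtn4rl1 lies above the falling line, which ends at 58.8% GC, while Lingo1, Lingo3 and Rtn4r lie to the right of its end. Against its last value, -0.48, Lingo3 and Rtn4r are lower and Lingo1 is higher. After removal Lingo1 and Rtn4rl1 stand above 0.

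Lingo3 and Lingo1 have similar GC content (61.8% and 59.1%), and their ratio within a library does not depend on library size. This ratio was formed after the data had been seen and uses the contrast by which Lingo3 was chosen, so it is a description. Lingo3 over Lingo1, in CPM, was 0.601, 0.580, 0.651, 0.604 and 0.584 in Visudyne 1 to 5. It was 0.936, 0.7099, 0.864, 0.837 and 0.959 in vehicle 6 to 10. The groups did not overlap, and the 5 Visudyne mice were close to each other, at 0.604 ± 0.0286 against 0.861 ± 0.0981 in vehicle (SD, n = 5 each). With the GC trend removed the ratio was 0.579 to 0.665 in Visudyne and 0.694 to 0.977 in vehicle, again without overlap. The ratio to Lingo1 did not overlap for 8.38% of all tested genes, and for 14% with the trend removed. With and without the GC trend, Lingo3 relative to Lingo1 stood lower in every Visudyne library than in any vehicle library. The trend, Visudyne minus vehicle in log2 units, was -0.53 at the GC content of Lingo3 and -0.47 at that of Lingo1. Its removal could therefore move their ratio little, and nothing is read from the ratio staying separate. With the trend removed each gene by itself overlapped between the groups, with Lingo3 at a log2 fold change of -0.18 and Lingo1 at 0.27. The ratio of Lingo3 to Lingo2, a GC-poor relative, did not stay separate. It was 0.182 to 0.249 in Visudyne and 0.340 to 0.552 in vehicle, without overlap, but with the GC trend removed it was 0.243 to 0.341 and 0.245 to 0.416, and the groups overlapped.

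The receptor pair separated the groups less clearly. Rtn4r over Rtn4rl1 was 0.0909 to 0.1194 in Visudyne and 0.1192 to 0.192 in vehicle, and the groups overlapped, with Visudyne 2 above vehicle 10. With the GC trend removed it was 0.0974 to 0.120 in Visudyne and 0.124 to 0.165 in vehicle, without overlap. The share of all tested genes whose ratio to Rtn4rl1 did not overlap was 8.58% before and 11.5% after removal of the trend. The members were proposed with this contrast known, so the ratio is a description. With the trend removed each gene by itself overlapped between the groups, with Rtn4r at a log2 fold change of -0.17 and Rtn4rl1 at 0.19. The trend, Visudyne minus vehicle in log2 units, was -0.54 at the GC content of Rtn4r and -0.39 at that of Rtn4rl1. Nothing is read from the separation, and the low counts of Rtn4r limit the ratio further.

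**Figure D3:**
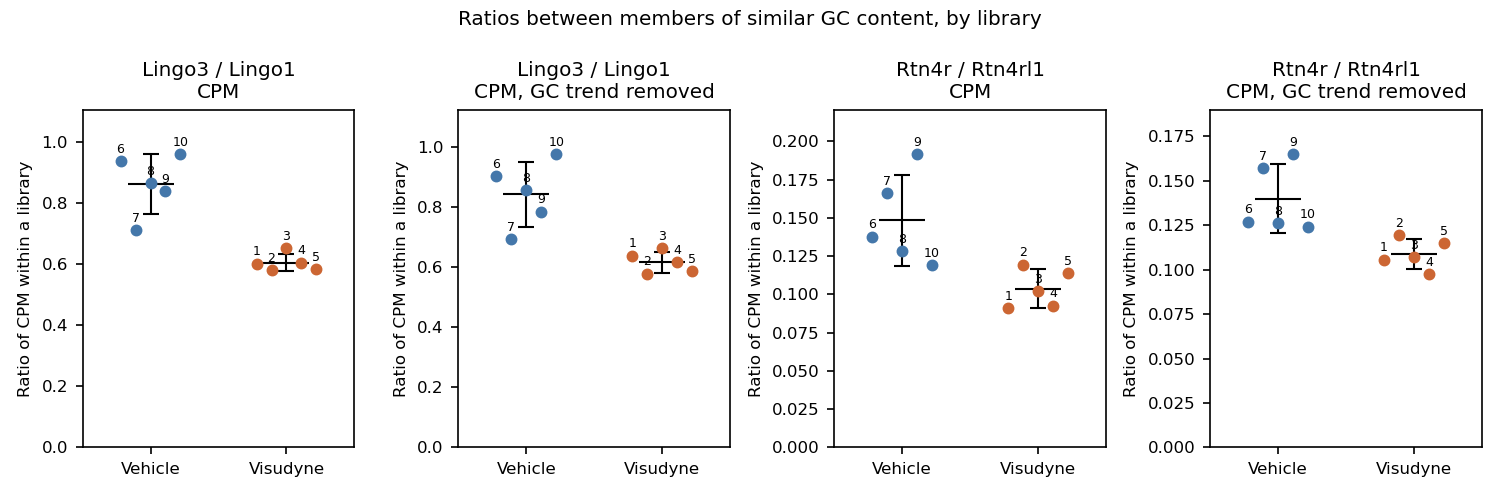
Ratio of Lingo3 to Lingo1 and of Rtn4r to Rtn4rl1 within each library, from CPM and from CPM with the GC trend removed, with 1 point per library (numbered) and the group mean with its SD in black. Lingo3 over Lingo1 is at 0.651 or less in every Visudyne library and at 0.7099 or more in every vehicle library.

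The genes most like each member over the 10 libraries were found by the root mean square difference between log2 CPM profiles, each centred on its own mean, among 11565 protein-coding genes whose mean was 1 CPM or more. For Lingo3 they were S100a16, a calcium-binding protein gene, at a difference of 0.084, Gpr17, which marks oligodendrocyte precursors as they mature, at 0.10, and Rasd2, a small GTPase gene, at 0.11, where the median gene was at 0.40. For Rtn4r they included Rps3, a ribosomal protein gene, at 0.053, and Akt1, a kinase gene, at 0.082. Lingo1 was nearest to Pi4ka, a lipid kinase gene, at 0.032, followed by Phactr1 at 0.042 and Axin2, an inhibitor of Wnt signalling, at 0.042. Rtn4 was nearest to Ednrb at 0.026, Mbnl2 at 0.028 and Pfn2 at 0.033, and Omg to C1d at 0.024, Cab39 at 0.031 and Bnip3l at 0.032. Lingo2 was nearest to Akap2 at 0.054, Pcbp2 at 0.056 and Igsf10 at 0.062, and Rtn4rl1 to Sqstm1 at 0.060, Ifngr2 at 0.061 and Susd6 at 0.064. These profiles share libraries, depth and GC trend, so likeness here is a description only.

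Beyond the members, 44 other genes of the pathway were followed, of which 41 were tested. Of these, 3 were called higher (Rock1, Lgi1 and Egfr) and 7 lower (Bcan, Rtn2, Amigo3, Mmp24, Arhgdia, Kalrn and Cfl1), and 31 were not called. Over all tested genes 8.98% were called higher and 11.5% lower. The median log2 fold change was -0.010 over the 41 and 0.010 over all tested genes. The 7 called lower had a GC content of 52.2% to 59.9% and the 3 called higher one of 38.2% to 46.3%. With the GC trend removed 0 of the 41 were called in either direction. The groups did not overlap in 4 of the 41, Rock1, Bcan, Amigo3 and Kalrn, against 12.5% of all tested genes.

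Of the other reticulon genes, Rtn2 fell from 6.69 ± 1.38 to 4.08 ± 0.989 CPM (SD, n = 5 each; edgeR log2 fold change -0.72 with SE 0.19, adjusted p = 0.030), with overlapping ranges. Its call was lost without Visudyne 1, 3 or 4 or vehicle 6, 7 or 9. Rtn1 was at 395.2 (Visudyne) and 342.8 (vehicle) CPM, and Rtn3 at 686.6 and 605.8 CPM. Neither was called. Removal of the GC trend moved the log2 fold change of Rtn1 from 0.20 to 0.38 (SE 0.10).

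Among the other ligands, the chondroitin sulfate proteoglycans, Bcan (brevican) fell from 11.7 ± 3.41 to 6.81 ± 1.49 CPM (SD, n = 5 each; edgeR log2 fold change -0.78 with SE 0.19, adjusted p = 0.028), and 1 of 5 tested genes was called. Its ranges did not overlap, at 5.02 to 8.63 CPM in Visudyne and 9.58 to 17.6 CPM in vehicle. With the GC trend removed they did not overlap either, at 6.84 to 8.32 and 8.37 to 11.4 CPM. After that removal the ranges of Kalrn and Cfl1 were also apart, where 6.85% of all tested genes did not overlap. The log2 fold change of Bcan was then -0.29 (edgeR adjusted p = 0.084), and -0.087 with GC slope as covariate. Ncan (neurocan) was at 66.4 (Visudyne) and 76.96 (vehicle) CPM, Vcan (versican) at 28.8 and 25.03, Acan (aggrecan) at 2.13 and 2.82, and Cspg4 (NG2) at 0.397 and 0.818 CPM, none of them called. Mag, the third classical myelin ligand of NgR1, was listed at 0 in 2 Visudyne and 3 vehicle libraries and at 28 counts or fewer in the others, and was not tested. No level is read from this listing.

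Among the other receptors and co-receptors, 1 of 13 tested was called higher and 1 lower. Egfr, whose kinase is known to act in Nogo receptor signalling, rose from 22.6 ± 1.87 to 26.8 ± 2.13 CPM (SD, n = 5 each; edgeR log2 fold change 0.24 with SE 0.075, adjusted p = 0.041). Amigo3, which can take the place of Lingo1 in the receptor complex, fell from 0.404 ± 0.0553 to 0.238 ± 0.0503 CPM (edgeR log2 fold change -0.75 with SE 0.24, adjusted p = 0.045). Among fits that left out 1 library, Egfr kept its call without Visudyne 5 or vehicle 7 and Amigo3 without Visudyne 5, and each lost it in the others. Ngfr, the p75 partner of NgR1, was at 0.230 (Visudyne) and 0.361 (vehicle) CPM. Tnfrsf19 (TROY), which can stand in for p75, was far more abundant, at 50.6 ± 2.87 and 48.9 ± 4.80 CPM. Sdc3 was at 16.2 and 21.3 CPM, Lrp1 at 19.1 and 31.8 and Ptprs, a proteoglycan receptor gene, at 35.1 and 50.6 CPM, and none of these was called. Adgrb1 was listed at 0 in 8 of 10 libraries and Lingo4 at 1 to 7 counts, and neither was tested. As for Mag, no level is read from the listing of Adgrb1.

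Of the 4 extracellular modulators, Lgi1, whose secreted synaptic protein also binds NgR1, rose from 158.2 ± 10.5 to 189.2 ± 22.03 CPM (SD, n = 5 each; edgeR log2 fold change 0.26 with SE 0.083, adjusted p = 0.046) and, with 1 library left out, was still called without Visudyne 5 alone. Mmp24, a membrane protease gene, fell from 9.31 ± 1.33 to 5.94 ± 1.75 CPM (edgeR log2 fold change -0.65 with SE 0.18, adjusted p = 0.033). Its call was lost without Visudyne 1, 3 or 4 or vehicle 6, 7 or 9. Olfm1, at 453.4 (Visudyne) and 505.8 (vehicle) CPM, and Crtac1, which encodes the NgR1 antagonist LOTUS, at 8.24 and 9.98 CPM, were not called.

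Among the intracellular signalling genes 1 of 16 was called higher and 3 lower. Rock1, a kinase activated by RhoA, rose from 56.0 ± 4.78 to 69.6 ± 6.37 CPM (SD, n = 5 each; edgeR log2 fold change 0.31 with SE 0.078, adjusted p = 0.028), and with the GC trend removed it was at -0.019. Rock1 and Bcan lost their calls without Visudyne 1 or 3 or vehicle 6 or 9. Kalrn, an exchange factor of dendritic spines, fell from 263.7 ± 18.4 to 209.6 ± 13.1 CPM (edgeR log2 fold change -0.33 with SE 0.065, adjusted p = 0.023), without overlap, and lost its call without Visudyne 3 or vehicle 6. Arhgdia, which encodes an inhibitor of small GTPases, fell from 19.1 to 13.1 CPM and Cfl1, which encodes the actin-severing protein cofilin, from 207.6 to 168.8 CPM (edgeR adjusted p = 0.029 and 0.049). With 1 library left out, Arhgdia kept its call without Visudyne 5 or vehicle 7, 8 or 10 and Cfl1 without Visudyne 5 or vehicle 10. Rhoa itself was at 66.9 ± 3.48 (Visudyne) and 64.8 ± 3.96 (vehicle) CPM. Rock2 was at 494.0 and 422.5 CPM and Wnk1 at 130.6 and 112.9 CPM, and neither was called.

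**Figure D4:**
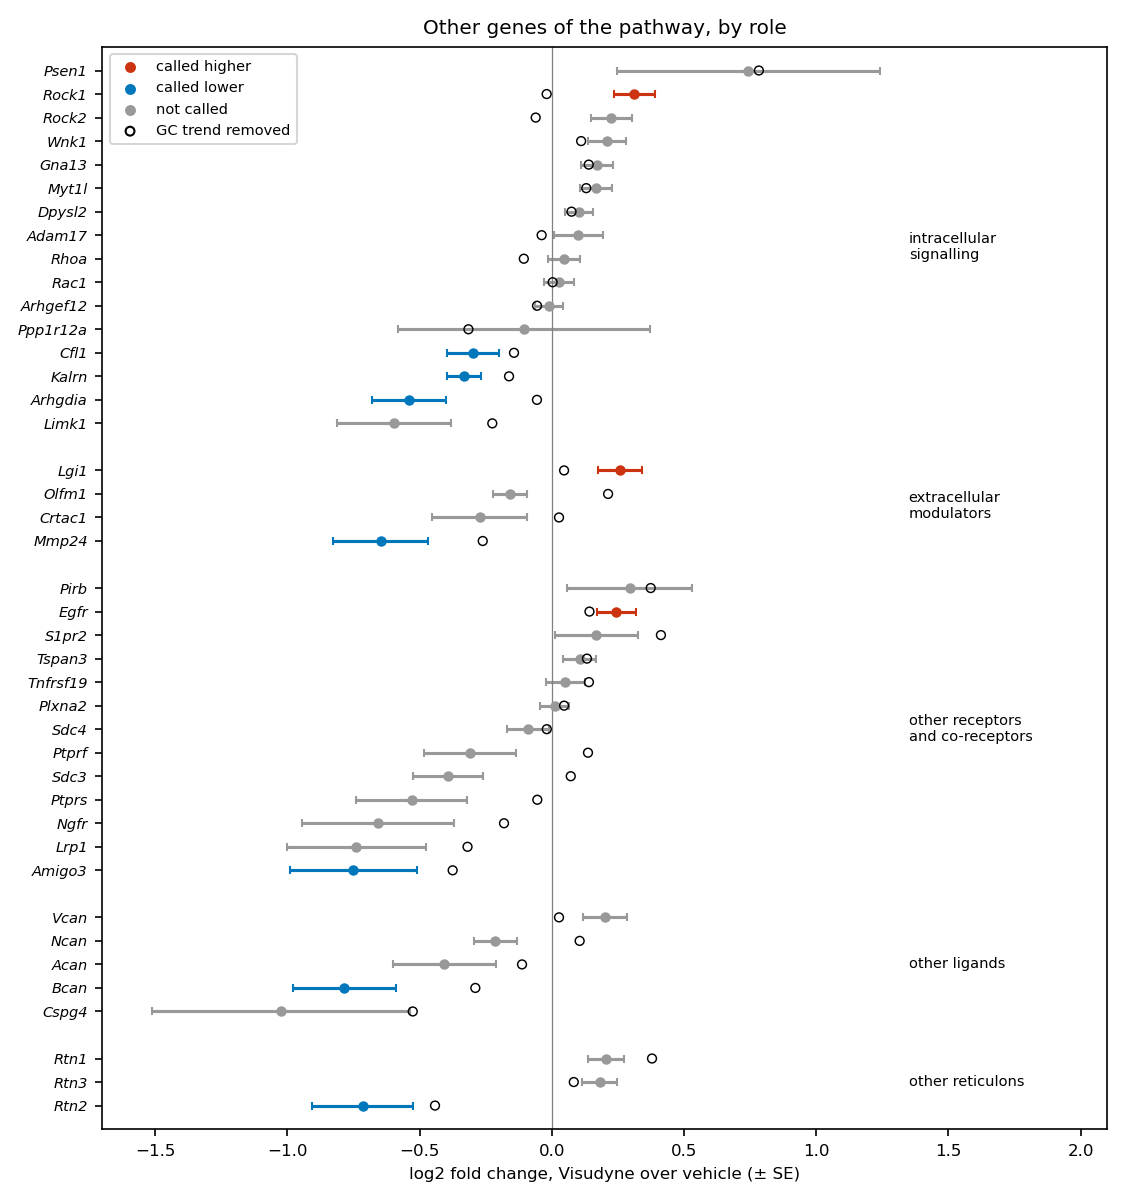
Log2 fold change of Visudyne over vehicle (points, bars are SE) of the 41 tested other pathway genes by role, coloured by call, with the value after removal of the GC trend as an open circle. The 3 genes called higher and 7 called lower sit on opposite sides of 0, and 0 of the 41 are called with the trend removed.

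Omg and Rtn4 are expressed by oligodendrocytes as well as neurons, and in whole hippocampus fewer cells of a type and less RNA per cell cannot be told apart. The 8 mature oligodendrocyte markers, all detected, summed to 2281 to 2734 CPM in Visudyne and 2349 to 3165 CPM in vehicle, with 4 called lower and 0 higher. The 6 neuronal markers summed to 4948 to 6188 CPM in Visudyne and 4284 to 5028 CPM in vehicle, with 1 called higher and 0 lower. Their sum was highest in Visudyne 1 and 3 and lowest in vehicle 9, as were Rtn4 and Omg. The part of either cell type in the differences of the members was not tested. Of the other lists, 1 of 4 oligodendrocyte precursor markers and 1 of 4 microglial markers were called lower, and 0 of 5 astrocyte and 0 of 3 endothelial markers were called. Over all tested genes 8.98% were called higher and 11.5% lower, and nothing is read from these counts of markers. Visudyne 3 and 5, the libraries with high choroid plexus markers, held the highest Lingo3 values of their group, and the log2 fold change of Lingo3 was -0.74 without the former and -0.72 without the latter.

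**Figure D5:**
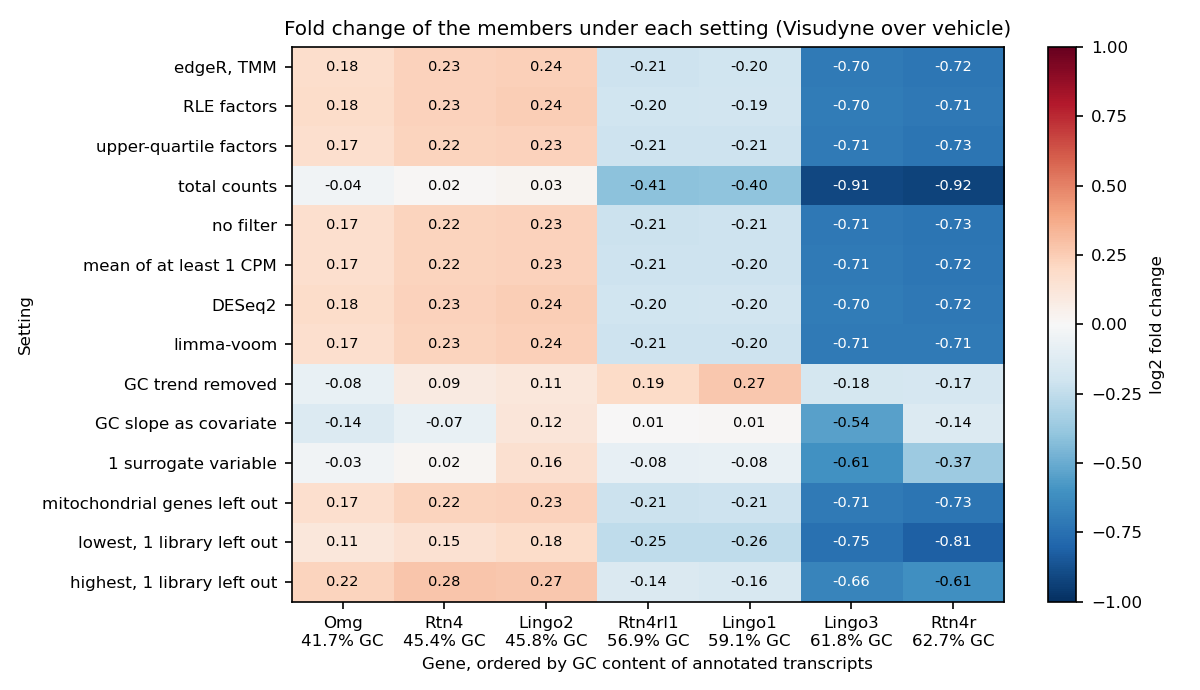
Log2 fold change of Visudyne over vehicle of the 7 tested members, ordered by GC content, under each setting (rows), with the lowest and highest value when 1 library was left out. Lingo3 and Rtn4r are negative and Lingo2 positive in all rows, while Lingo1 and Rtn4rl1 change sign in both GC rows, Rtn4 with GC slope as covariate, and Omg in those rows, with total counts and with 1 surrogate variable.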

How the data were processed

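Hippocampal total RNA of 5 Visudyne and 5 vehicle mice was sequenced from stranded libraries, per the labels' protocols. The deposited table holds whole numbers per gene. Salmon and FastQC and the build mm10 are named in the submitters' processing notes, so the deposited values were treated as rounded estimated counts and used unchanged. No source at hand states the annotation or how transcripts were summed. Symbols, positions, exon lengths and GC content (all annotated transcripts pooled) came from GENCODE M21 on GRCm38, which held 27053 of 27343 identifiers. GC content was known for 15829 of 15938 tested genes.

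The main comparison used edgeR 4.0.16 under R 4.3.3: filterByExpr, then TMM, then the quasi-likelihood test on group alone (two-sided, Benjamini-Hochberg over all tested genes, threshold 0.05). CPM use TMM library sizes. Alternatives were other size factors and filters, DESeq2 1.42.0, limma 3.58.1 (voom), 1 surrogate variable (sva 3.50.0), removal of a per-library loess trend (span 0.3) of log2 CPM (prior count 2) on GC content, the library's GC slope as a covariate, leaving out mitochondrial genes, and leaving out each library. The fit was run on simulated counts, with a pass condition only for those without a GC trend, so this check does not cover data with such a trend. Members, lists and alternatives were chosen with earlier results of these data known. Named genes are the members, up to 6 pathway genes per role with the smallest p, up to 3 abundant markers per cell type, the 3 genes most like each member, and genes overlapping a member. Rhoa, Tnfrsf19, Mag, Adgrb1 and Lingo4 were named after their values were seen. A few results that the rule would name are not reported here.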

Additional observations from a re-analysis of the deposited data

Results flagged for a closer look

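In 5 of 64 groups of 5 libraries checked (8 members and 24 named pathway genes), 1 library stood apart from the other 4 by Dixon's criterion, where chance gives about 1 in 20, or 3.2. Rtn4 in vehicle 9 was at 615.8 CPM, with the next vehicle library at 776.7 CPM. Vehicle 9 was also lowest in Rtn1, at 311.2 CPM against 344.9 CPM in the next, and in Lgi1, at 140.0 CPM against 160.4 CPM, and highest in Cspg4, at 1.98 CPM against 0.684 CPM. Vcan in vehicle 10 was at 27.6 CPM, with the next at 24.6 CPM. Vehicle 9 had the steepest positive GC slope of the 10 libraries, 0.41 log2 units for each 10 percentage points, and its part in these values was not tested. Without vehicle 9 the log2 fold change of Rtn4 was 0.15 in place of 0.23.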

How the results depend on the processing

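No paired analysis was possible because the replicate numbers run from 1 to 5 in Visudyne and from 6 to 10 in vehicle, so the groups share none. The number of members called, 3, was 0 with the GC trend removed, 0 with GC slope as covariate, and 0 with 1 surrogate variable, settings in which 3.17%, 0% and 0.00627% of all tested genes (505, 0 and 1) were called, and 1 to 4 with 1 library left out. It was 1 without Visudyne 1, 3 or 4 or vehicle 6, 7 or 9. The number of pathway genes called higher, 3, was 5 with upper-quartile factors, 0 with total counts, 1 without a filter, 8 with a mean of at least 1 CPM, 9 by DESeq2, and 0 in each of the GC trend, GC slope and surrogate variable settings. It was 0 to 9 with 1 library left out. The number called lower, 7, was 16 with total counts and 0 in each of those 3 settings, and 0 to 12 with 1 library left out. It was 0 without Visudyne 3 and 0 without vehicle 6, and 12 without Visudyne 5, fits in which 0.031%, 0.0311% and 17.9% of all tested genes were called lower. With total counts 24.5% of all tested genes were called lower and 1.23% higher, against 11.5% and 8.98% with TMM. The pathway counts thus moved with those of the whole table.

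Signs turned as follows, in log2 fold change. With the GC trend removed Lingo1 was at 0.27, Rtn4rl1 at 0.19, Omg at -0.076, Ncan at 0.11, Sdc3 at 0.072, Crtac1 at 0.027, Olfm1 at 0.21, Rock1 at -0.019 and Rock2 at -0.061. With GC slope as covariate, Lingo1 was at 0.0093, Rtn4 at -0.073, Rtn4rl1 at 0.0057, Omg at -0.14, Vcan at -0.050, Cspg4 at 0.20, Sdc3 at 0.10, Ptprs at 0.32, Lrp1 at 0.33, Crtac1 at 0.35, Mmp24 at 0.0048, Rock2 at -0.0091 and Cfl1 at 0.041. With 1 surrogate variable Omg was at -0.034, Ptprs at 0.021 and Crtac1 at 0.16. With total counts Omg was at -0.037, Rtn1 at -0.0052, Rtn3 at -0.025, Vcan at -0.0068 and Wnk1 at -0.0015. The cause was not tested. Leaving out 1 library turned the sign of 0 of the 7 tested members. The depth of 30 to 99 counts limits Rtn4r, and that of 0 to 11 counts Rtn4rl2.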
